A study of Mus musculus with 7 samples.

Results

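The complement system was followed through 8 genes in RNA-seq libraries of CD11b+ migratory dendritic cells from mice. The genes were chosen by name, as the rows of the gene tables called C1qa, C1qb, C1qc, C3, Cfb, Cfp, C3ar1 and C5ar1, and all 8 were found among the 48440 genes listed for each library. Migratory dendritic cells carry inhaled material from the lung to the draining lymph node and prime T cells there. The infant group held 4 libraries from mice of 2 to 3 weeks, and the adult group 3 libraries from mice of 7 weeks. All mice were of strain B6, and all had received house dust mite allergen (HDM) with the bacterial product LPS through the nose 24 hours before the cells were taken, so no group without sensitization was compared. The sort, from the mediastinal lymph node, took CD11c+ and CD11b+ cells with high MHC class II and left out cells with B220, CD64 or CD103 on their surface. Whether a library stands for 1 animal or a pool, and whether libraries came from separate animals, is not in the labels, so p-values here measure only how these libraries spread.

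Complement is a set of blood and tissue proteins that mark particles for removal. C1q, built from A, B and C chains, binds antibody-coated or dying material and starts the classical pathway. The alternative pathway runs through C3, factor B and properdin, and the cleavage of C3 and C5 releases the small peptides C3a and C5a, which act on the receptors C3aR and C5aR1. Tissue macrophages and some dendritic cells make C1q themselves, whereas most circulating C3 comes from the liver.

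The libraries held 18022302 to 20377361 exon reads in infants and 20064331 to 22316484 in adults. Infant 2 stood apart on the first principal component of all tested genes, at 65.7, while the remaining infants lay between -14.2 and 8.59 and the adults between -22.3 and -20.9. Every infant library held reads of Xist (117 to 285) and of 4 Y-linked genes (340 to 1432), while adults 1 and 3 had 0 Xist reads and adult 2 had 3 Y-linked reads. Each infant library thus held transcripts of both sexes, as a pool of male and female animals would. Each adult library held mainly those of 1 sex, which a single animal or a pool could give. The sexes were therefore not balanced alike in the groups. The table of adult 3 carried a run name of another pattern than the other 6, and its group was taken from its label. The migratory dendritic cell markers, 11 of 11 tested, summed to 41239.8 to 63139.7 CPM in infants and 40372 to 47297 CPM in adults, where CPM is the read count relative to the scaled library size. Most of this sum was Cd74 and H2-Ab1. Ccr7 lay at 4599 to 5218 CPM in infants and 5518 to 6392 CPM in adults. Flt3 lay at 147 to 355 against 405 to 441 CPM, and Zbtb46 at 163 to 201 against 217 to 242 CPM. All adults thus lay above all infants for each, as for 7.58% of all tested genes (edgeR adjusted p = 0.417, 0.337 and 0.317). For the other markers the groups overlapped. Itgam, which encodes CD11b, lay at 9.83 to 21.2 CPM in infants and 15.7 to 17.5 CPM in adults.

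All 8 genes lie on the minus strand in mm10. C1qa, C1qc and C1qb (ENSMUSG00000036887, ENSMUSG00000036896 and ENSMUSG00000036905) sit side by side within 18675 bp of chromosome 4, from 136880129 to 136898803. C3 (ENSMUSG00000024164) spans 57203970 to 57228136 on chromosome 17, and Cfb (ENSMUSG00000090231) spans 34856374 to 34862518 on the same chromosome. Cfp (ENSMUSG00000001128) spans 20925454 to 20931555 on the X chromosome. The receptor genes are C3ar1 (ENSMUSG00000040552), at 122847138 to 122856161 on chromosome 6, and C5ar1 (ENSMUSG00000049130), at 16246743 to 16259540 on chromosome 7. All are annotated as protein-coding, and the spans in the files were those of GENCODE M21 for all 8.

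No difference between infants and adults passed the test for any of the 8 genes. Under the quasi-likelihood test of edgeR, adjusted by Benjamini-Hochberg over all 12261 genes tested, 0 of the 8 passed a threshold of 0.05, where 0.0163% of all tested genes did (2 genes). At an unadjusted p under 0.05 the count was 0 of 8 against 13.3% of all tested genes, and DESeq2 called 0 of 8 against 1.57%. Infant and adult libraries overlapped for all 8 genes, while they did not overlap for 15.5% of the genes tested (7.97% with infants above and 7.58% with adults above). The fitted log2 fold changes, infant minus adult, ran from -0.32 to 0.10, with 6 below 0 and 2 above 0 and a median of -0.07, against 0.0016 for all tested genes. These values do not show that the groups were alike, since the 95% intervals allowed changes of about 2-fold for the C1q chains and the receptors.

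**Figure D1:**
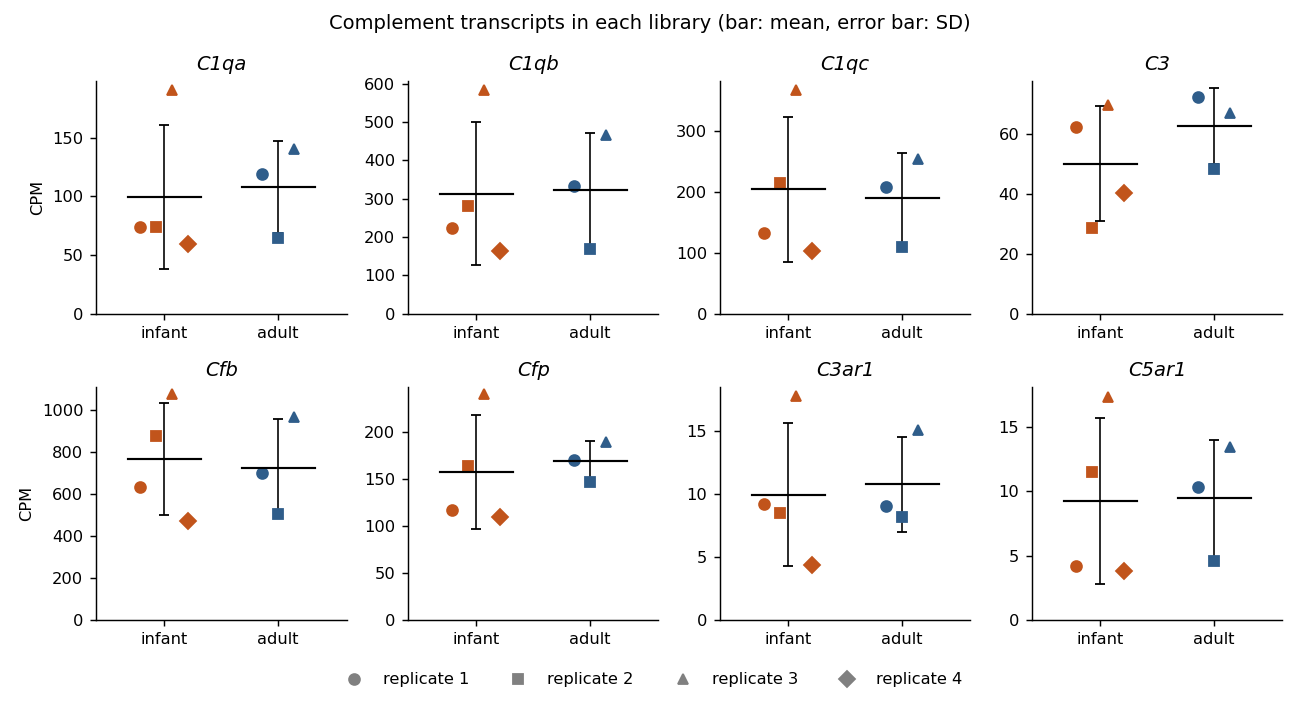
CPM of the 8 complement genes in each library, infants left and adults right, with the mean as a bar and the SD as an error bar (n = 4 infants, n = 3 adults). Infant 3 is the highest library for 7 genes and infant 4 the lowest for the same 7, and the groups overlap in every panel.

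The C1q chains were among the abundant transcripts of these libraries. On the authors' RPKM scale, which divides reads by exon length, C1qb had a mean level of 273 RPKM over the 7 libraries, place 177 of the 12261 tested genes. C1qc averaged 95.9 RPKM and C1qa 92.7 RPKM, places 638 and 666. C1qb, the B chain, had 223, 281, 585 and 165 CPM in infants 1 to 4, against 334, 169 and 467 CPM in adults 1 to 3. Infant 3 and adult 3 were the high libraries, and infant 4 and adult 2 the low ones. The means were 313 ± 187 CPM in infants (SD, n = 4) and 323 ± 149 CPM in adults (SD, n = 3), which gave a fitted log2 difference of -0.04 (SE 0.43, 95% interval -0.99 to 0.90, adjusted p = 0.970 by edgeR).

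C1qa, the A chain, had 73.6, 74.1, 191 and 59.3 CPM in infants 1 to 4, against 119, 64.6 and 140 CPM in adults 1 to 3. Infant 3 exceeded every adult, and the other 3 infants lay below adults 1 and 3. The log2 fold change was -0.12 (SE 0.40, 95% interval -0.999 to 0.76, adjusted p = 0.909 by edgeR). C1qc, the C chain, had 133, 214, 369 and 102 CPM in infants 1 to 4, against 209, 109 and 254 CPM in adults 1 to 3. The same high and low libraries appeared, and the log2 fold change was 0.10 (SE 0.41, 95% interval -0.82 to 1.02, adjusted p = 0.925 by edgeR). All exon reads of the 3 chains mapped uniquely, 7422 to 23399 per chain in infants and 6942 to 20694 in adults.

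The proportions of the chains to each other varied less between libraries than their levels did. The RPKM ratio of C1qc to C1qa was 0.975, 1.56, 1.04 and 0.930 in infants 1 to 4, against 0.947, 0.910 and 0.975 in adults 1 to 3. The ratio of C1qb to C1qa was 2.89, 3.62, 2.93 and 2.66 in infants, against 2.69, 2.50 and 3.18 in adults. Infant 2 was the highest library for both ratios, and its gap to the next infant over their range was 0.822 for C1qc to C1qa and 0.717 for C1qb to C1qa, both under Dixon's critical value of 0.829. A two-sided exact permutation test of the log2 ratios gave p = 0.343 and p = 0.543 between infants and adults (adjusted p = 0.724 for both over the 4 ratios compared, which were chosen after the values were seen). The smallest p these group sizes allow is 0.0286.

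Sequences of 250 bases before the RefSeq gene start are shown for 2 neighbouring C1q genes, whose transcripts varied together, and for C3, whose highest and lowest libraries were others. They are read 5′ to 3′ on the strand of the gene, in build GRCm38.p6. Capitals mark GAGGAA, the core of the site for the myeloid factor PU.1, and TGCTGA, the core of a Maf recognition element, in either direction.

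C1qb (chr4:136886201-136886450, minus strand): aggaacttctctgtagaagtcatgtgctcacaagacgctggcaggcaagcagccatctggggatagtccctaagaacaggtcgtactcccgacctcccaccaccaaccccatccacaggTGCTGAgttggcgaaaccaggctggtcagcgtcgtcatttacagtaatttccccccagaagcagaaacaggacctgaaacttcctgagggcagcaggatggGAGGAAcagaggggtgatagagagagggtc

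C1qc (chr4:136892915-136893164, minus strand): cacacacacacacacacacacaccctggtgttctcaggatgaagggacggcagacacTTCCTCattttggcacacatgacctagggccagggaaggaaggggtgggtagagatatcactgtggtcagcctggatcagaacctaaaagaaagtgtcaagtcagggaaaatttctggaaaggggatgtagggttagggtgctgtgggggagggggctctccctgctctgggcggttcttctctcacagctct

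C3 (chr17:57228137-57228386, minus strand): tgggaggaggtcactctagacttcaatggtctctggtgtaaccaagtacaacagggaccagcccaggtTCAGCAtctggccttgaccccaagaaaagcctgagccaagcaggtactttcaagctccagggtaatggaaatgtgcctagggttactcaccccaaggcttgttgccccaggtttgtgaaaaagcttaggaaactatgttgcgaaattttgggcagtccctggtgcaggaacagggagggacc

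RefSeq starts the C1qc gene further in than the files do, so that 151 of its 250 bases lie inside the gene span of the files. The table of promoters held 6 of the 8 genes. For C5ar1 202 bases and for C3ar1 4 bases also lie inside the span, and for C1qb, C3 and Cfp 0 bases do. GAGGAA occurred in 2 of these 6, C1qb and C1qc, against 23.3% of 32851 promoters of the same length. TGCTGA occurred in 4 of 6, C1qb, C3, C3ar1 and C5ar1, against 16.1%. GAAACT, a repeat unit of interferon response elements, occurred in 3 of 6, C1qb, C3 and C5ar1, against 13.5%. The NF-kB consensus occurred in 1, C1qc, against 3.90%, and the STAT palindrome in 0, against 7.02%. The TGCTGA and GAAACT of C5ar1, at 17 and 201 bases before the RefSeq start, lie inside the gene span of the files. So does the NF-kB match of C1qc, at 41 bases. Matches were sought on both strands and are descriptions of these letters alone.

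C3, the central component that the classical and alternative pathways cleave, was present at a moderate level, highest in adult 1 and lowest in infant 2. It averaged 10.2 RPKM over the 7 libraries, place 4099 of 12261. C3 had 62.3, 28.5, 69.7 and 40.3 CPM in infants 1 to 4, against 72.6, 48.3 and 67.2 CPM in adults 1 to 3. Infants 2 and 4 lay below every adult and infants 1 and 3 lay within the adult range. The means were 50.2 ± 19.1 CPM in infants (SD, n = 4) and 62.7 ± 12.7 CPM in adults (SD, n = 3). Its log2 fold change of -0.32 was the widest of the 8 (SE 0.28, 95% interval -0.94 to 0.30, adjusted p = 0.611 by edgeR). Without infant 2, the lowest library, it was -0.13, and without infant 3 it was -0.52.

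Cfb, the alternative pathway protease factor B, stood beside C1qb as the other abundant member, with 247 RPKM on average, place 200 of 12261. It had 635, 877, 1079 and 473 CPM in infants 1 to 4, against 698, 502 and 968 CPM in adults 1 to 3. Infants 2 and 3 and adult 3 were high, and infant 4 and adult 2 were low. The means were 766 ± 267 CPM in infants (SD, n = 4) and 723 ± 234 CPM in adults (SD, n = 3), which gave a fitted log2 difference of 0.08 (SE 0.29, 95% interval -0.56 to 0.73, adjusted p = 0.912 by edgeR).

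Most Cfb reads could not be placed on 1 gene. Of its 104343 exon reads over all libraries, 11.9% mapped uniquely, and the share was 11.7% to 12.1% in every library. In the annotation Gm20547, a protein-coding gene from 34856412 to 34882042 on the same strand, shares 2246 of the 2825 exon bases of Cfb (79.5%) and runs on over C2. The tables gave Gm20547 itself 90 reads in infants and 13 in adults, of which 1 was unique. No source used here gives the way the tables divided shared reads between these genes. On unique reads alone, 1607, 1992, 2284 and 1038 in infants 1 to 4 against 1830, 1343 and 2359 in adults 1 to 3, the log2 fold change of Cfb was again 0.08 (adjusted p = 0.911 by edgeR).

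**Figure D2:**
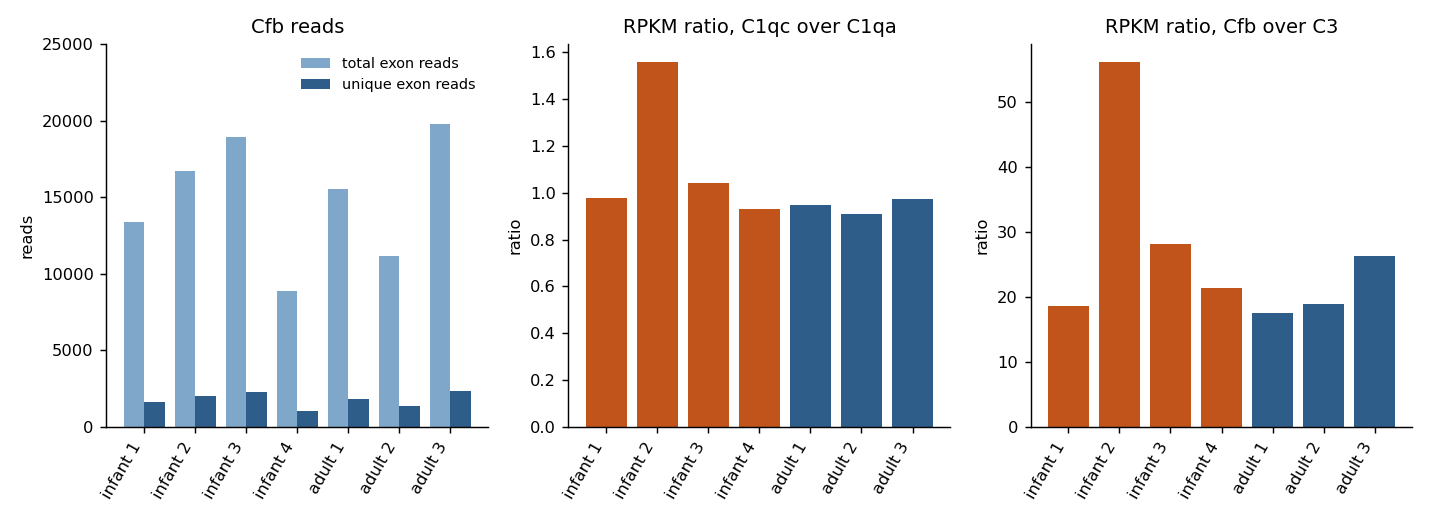
Left, total and unique exon reads of Cfb by library; middle and right, RPKM ratios of C1qc to C1qa and of Cfb to C3 by library, with infants in orange and adults in blue. Unique reads are 11.7% to 12.1% of the total throughout, and infant 2 has the highest value of both ratios, at 1.56 and 56.0.

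Cfp, which encodes properdin, the stabiliser of the alternative pathway convertase, averaged 87.2 RPKM, place 712 of 12261. It had 117, 163, 240 and 109 CPM in infants 1 to 4, against 170, 146 and 189 CPM in adults 1 to 3. The adults lay close together while infant 3 was above and infants 1 and 4 below all of them. The log2 fold change was -0.10 (SE 0.25, 95% interval -0.66 to 0.46, adjusted p = 0.877 by edgeR). Cfp is X-linked, and with the log2 CPM of the Y-linked genes as a covariate its fold change was -0.13.

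The ratio of Cfb to C3 was highest in infant 2. It was 18.6, 56.0, 28.2 and 21.4 in infants 1 to 4, against 17.5, 18.9 and 26.2 in adults 1 to 3 (RPKM over RPKM). The gap of infant 2 to the next infant was 0.743 of the infants' range, also under the critical value of 0.829. Between the groups an exact permutation test gave p = 0.429 (two-sided, adjusted p = 0.724 over the 4 ratios).

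The anaphylatoxin receptors were detected at low levels. C3ar1, the receptor of C3a, averaged 2.24 RPKM and C5ar1, the receptor of C5a, 3.38 RPKM, places 7773 and 6761 of 12261. C5ar1 had 89, 219, 305 and 72 exon reads in infants 1 to 4, against 230, 101 and 275 in adults 1 to 3. These were 4.21, 11.5, 17.4 and 3.83 CPM in infants and 10.3, 4.55 and 13.5 CPM in adults. Infants 1 and 4 and adult 2 were low, and the span of 4.54-fold between infants 3 and 4 was the widest of the 8 genes. The log2 fold change was -0.04 (SE 0.53, 95% interval -1.22 to 1.15, adjusted p = 0.980 by edgeR).

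C3ar1 had 9.19, 8.46, 17.8 and 4.31 CPM in infants 1 to 4, against 9.03, 8.16 and 15.1 CPM in adults 1 to 3. Infant 3 and adult 3 were high, infant 4 was low, and the other 4 libraries lay between 8.16 and 9.19 CPM. The log2 fold change was -0.12 (SE 0.41, 95% interval -1.03 to 0.80, adjusted p = 0.914 by edgeR). The RPKM ratio of C5ar1 to C3ar1 was 0.768 to 2.28 in infants and 0.935 to 1.92 in adults (exact permutation p = 0.943, two-sided, adjusted p = 0.943 over the 4 ratios).

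By mean RPKM the order of levels was C1qb, Cfb, C1qc, C1qa, Cfp, C3, C5ar1 and C3ar1. C1qb exceeded Cfb in 3 of 7 libraries, C1qc exceeded C1qa in 2 of 7, and C1qa exceeded Cfp in 4 of 7, so these neighbours did not differ beyond their spread. Cfb exceeded C1qc, Cfp exceeded C3 and C3 exceeded C5ar1 in all 7 libraries. C5ar1 exceeded C3ar1 in 5 of 7. The order sets levels per length of exon, and that of Cfb rests on shared reads.

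**Figure D3:**
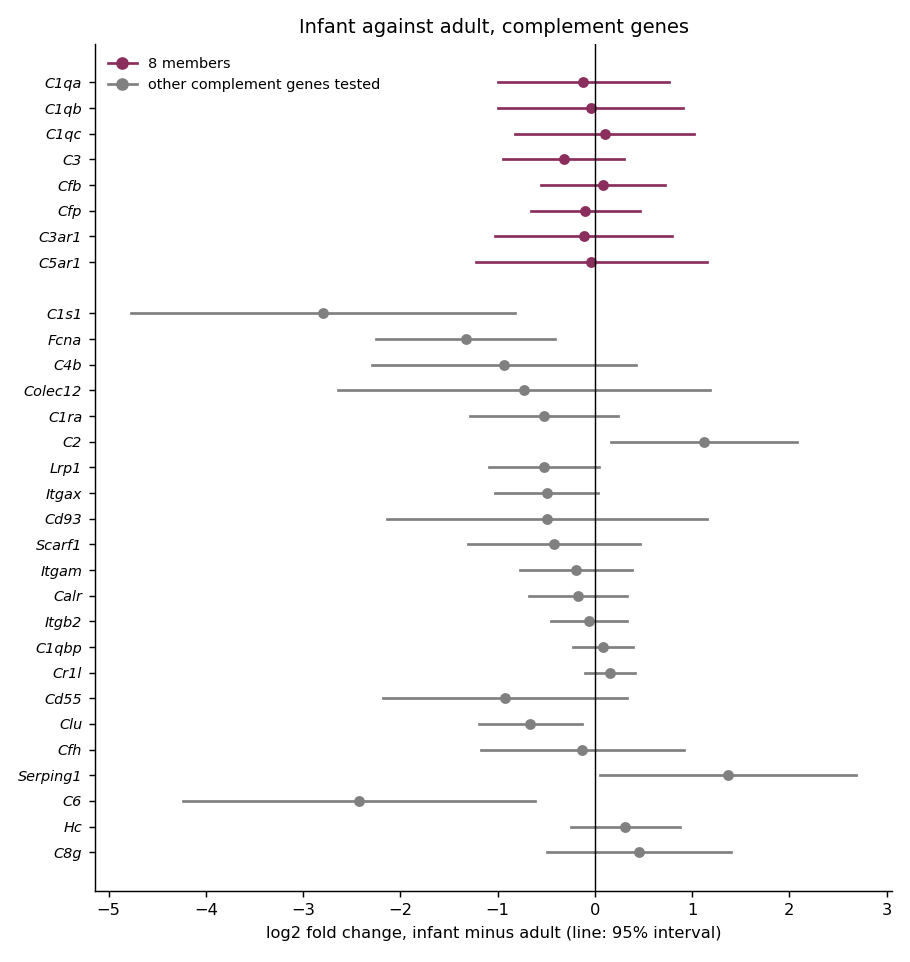
Log2 fold changes, infant minus adult, with 95% intervals, for the 8 members at the top and for the 22 other complement genes tested below them. The intervals of all 8 members include 0, and C1s1 and C6 have the lowest values of the other genes, at -2.80 and -2.43.

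The libraries of 1 age differed widely for these genes. The SD of log2 CPM within groups had a median of 0.70 over the 8 genes, against 0.28 over all 12261 tested genes. It was 0.97 for C5ar1, 0.77 for C1qb and 0.42 for Cfp, which are the 96.1, 92.5 and 72.6 percentiles of the tested genes. The highest infant exceeded the lowest infant by 2.21-fold (Cfp) to 4.54-fold (C5ar1), and the highest adult exceeded the lowest adult by 1.29-fold (Cfp) to 2.96-fold (C5ar1).

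The genes shared much of this variation. Infant 3 was among the 2 highest libraries and infant 4 among the 2 lowest for all 8 genes. Infant 3 was the highest and infant 4 the lowest for every gene but C3, and adult 3 was among the 2 highest for 7 genes. The summed CPM of the C1q chains was 429, 569.5, 1144 and 327 in infants 1 to 4, against 661, 343 and 861 in adults 1 to 3. Over the 7 libraries, the 21 pairs that leave out C3 had Pearson's r of 0.79 to 0.98 and Spearman's rho of 0.75 to 1.00 in log2 CPM. Of these pairs 21 passed an adjusted p of 0.05 for r and 19 for rho (exact permutation over 5040 orderings, two-sided, adjusted over all 28 pairs). Without the 2 libraries farthest from the median of the first gene, r ran from 0.54 to 0.995, and with each group centred on its own mean from 0.79 to 0.98.

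C1qa and C1qb, for example, had r = 0.97 (exact permutation p = 0.000198, adjusted p = 0.00556) and rho = 1.00 (exact permutation p = 0.000397), and r = 0.88 without infant 3 and adult 3. The 7 pairs with C3 had r of 0.26 to 0.68 and rho of 0.43 to 0.68, and none passed (adjusted p = 0.115 to 0.576 for r, exact permutation), which does not show that C3 varied apart. Without the 2 farthest libraries these pairs had r of 0.15 to 0.75. Without infants 2 and 4, r was 0.75 for C3 with Cfb and 0.73 for C3 with C5ar1, against 0.27 and 0.26 over all 7 libraries. All genes of a library share its depth, cell make-up and RNA quality, whose part in these values was not tested. For scale, 1.80% of the 12253 other tested genes had r of at least 0.79 with the mean of the C1q chains, and 4.99% with C3.

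Some markers of macrophages moved with these libraries and others did not. The macrophage list, which holds none of the 8 genes, had 12 of 14 genes tested and summed to 975, 1059, 1697 and 666 CPM in infants 1 to 4, against 1176, 809 and 1714 CPM in adults 1 to 3. In this sum infant 3 and adult 3 were high and infant 4 and adult 2 low, as for C1q. Most of it was Apoe, a lipid carrier that many myeloid cells make, at 403 to 1142 CPM in infants and 495 to 1278 CPM in adults. Fcgr1, which encodes the CD64 that the sort left out, had 10.5, 11.1, 31.6 and 8.63 CPM in infants, against 15.3, 9.74 and 23.2 CPM in adults. Without Apoe the sum was 400.2, 301, 555 and 263 CPM in infants 1 to 4, against 414, 314 and 437 CPM in adults 1 to 3, so that adults 1 and 3 lay close together. Taken singly, Fcgr1, Mertk, Csf1r, Ms4a7 and Apoe were highest in infant 3 among infants and in adult 3 among adults. Of the 12 tested markers, 3 were highest in infant 3 but not in adult 3 (Adgre1, Siglec1 and Timd4), and 3 were highest in neither (Mrc1, Marco and Folr2). Marco, a scavenger receptor, had 2.32, 7.68, 5.30 and 6.34 CPM in infants 1 to 4, against 27.1, 20.0 and 8.34 CPM in adults 1 to 3. Timd4 was lowest of all libraries in adult 3, at 9.41 CPM. Vsig4, a complement receptor of resident macrophages, was at 0 reads in all libraries, and Cd163 was at 0.0526 to 0.758 CPM in infants and 0.0490 to 0.135 CPM in adults.

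Monocyte markers, with 6 of 8 genes tested, summed to 271, 215, 447 and 169 CPM in infants 1 to 4, against 244, 160 and 299 CPM in adults 1 to 3, again with infant 3 and adult 3 high. Plac8 was the largest part of this sum, at 94.9 to 256 CPM in infants and 89.5 to 142 CPM in adults. Plac8, Ly6c2, Ccr2 and Cx3cr1 were each highest in infant 3 among infants and in adult 3 among adults. Vcan, F13a1, Fn1 and Fcnb, at 2.51 CPM or less, were not highest in both. The neutrophil list summed to 14.9 to 41.7 CPM in infants and 18.4 to 25.5 CPM in adults, most of it Csf3r, with Ly6g at 0. The remaining lists summed in infants to 32.4 to 48.8 CPM for B cells, 9.18 to 15.5 for T cells, 10.4 to 16.5 for cDC1 and 6.50 to 9.94 for epithelium and stroma. In adults the same lists summed to 31.0 to 33.6, 8.63 to 11.4, 8.93 to 21.0 and 7.63 to 9.11 CPM. The part of macrophages or monocytes in the levels of the complement genes was not tested. In bulk RNA, fewer cells of a type and less RNA per cell cannot be told apart.

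**Figure D4:**
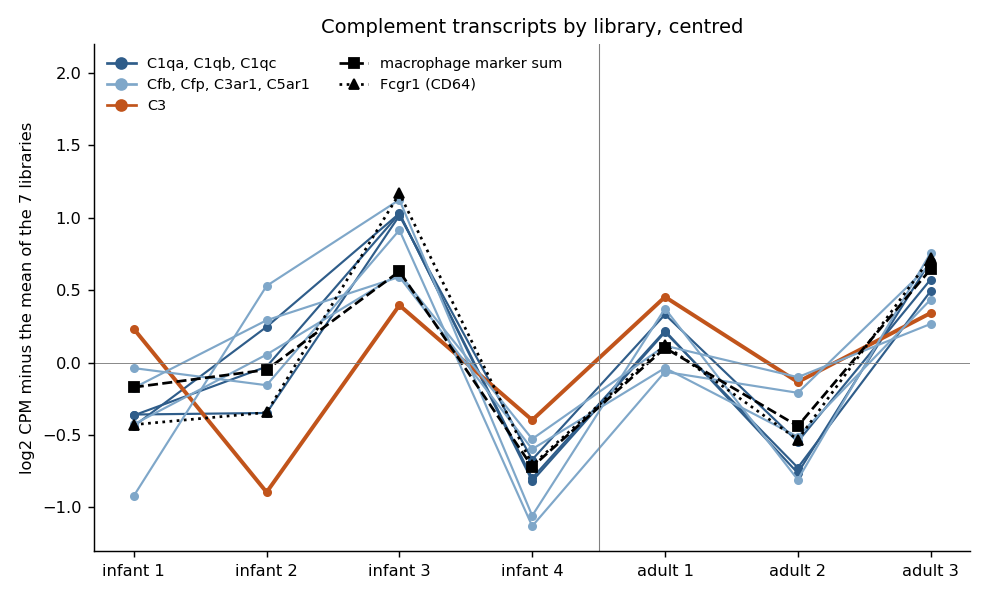
Log2 CPM of each complement gene by library, minus its mean over the 7 libraries, with the summed macrophage markers (dashed) and Fcgr1 (dotted) on the same scale; lines join the values of 1 gene and the libraries have no order. All genes but C3 peak in infant 3 and are lowest in infant 4, and C3 alone is lowest in infant 2.

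The genes most like each pattern were taken from 8009 genes by Pearson's r of log2 CPM over the 7 libraries, as a description. For the mean of the C1q chains they were Pla2g15, a lysosomal phospholipase (r = 0.98), Plscr3 (r = 0.97) and Fcgr1 (r = 0.97). For Cfb they were Fcgr3, the low-affinity IgG receptor (r = 0.99), Lgals8 (r = 0.98) and Rtp4, an interferon-induced gene (r = 0.98). For Cfp they were Myd88, the adaptor of Toll-like receptors (r = 0.98), Tmem50a (r = 0.97) and Ms4a4c (r = 0.96). For C3ar1 they were Ifit3, an interferon-induced gene (r = 0.99), Tm6sf1 (r = 0.98) and P2ry6 (r = 0.98), and for C5ar1 Tmem50a, Atp6ap1 and Dok2 (r = 0.97 each). For C3 they were Lyn, a Src family kinase (r = 0.98), Etv5 (r = 0.98) and Scarb2 (r = 0.97).

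Other complement genes were counted from a list of 48 by role, of which 47 were in the files and 22 could be tested. Neither edgeR nor DESeq2 called any of them in either direction, and at an unadjusted p under 0.05 edgeR had 6 of 22 (27.3%, against 13.3% of all tested genes). Infants and adults did not overlap for 2 of the 22 (9.09%, against 15.5% of all tested genes). The median log2 fold change of the 22 was -0.46, against 0.0016 for all tested genes.

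The partners of C1q in the classical pathway were scarce. C1s1, a protease of the C1 complex, had 0, 0, 7 and 4 reads in infants 1 to 4, against 19, 31 and 19 in adults 1 to 3, so that every infant lay below every adult. Its log2 fold change was -2.80 (SE 0.89, edgeR adjusted p = 0.298). C4b, cleaved by that complex, had 127, 22, 109 and 23 reads in infants, against 167, 75 and 206 in adults, and the fitted log2 difference was -0.93 (SE 0.61, edgeR adjusted p = 0.494). C2, the protease that joins it, had 120, 193, 196 and 210 reads in infants, against 120, 137 and 31 in adults, and the fitted log2 difference was 1.12 (SE 0.43, edgeR adjusted p = 0.331). Of the C2 reads 46.2% were unique, and Gm20547 spans C2 as well. Fcna, ficolin A of the lectin pathway, had 25 to 60 reads in infants and 57 to 133 in adults, and the fitted log2 difference was -1.33 (SE 0.41, edgeR adjusted p = 0.297).

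Factor D, encoded by Cfd, which activates factor B, had 0 reads in all 4 infants and 0, 2 and 3 reads in adults 1 to 3. Of the terminal genes, Hc, which encodes C5, had 157 to 237 reads in infants and 109 to 235 in adults, and the fitted log2 difference was 0.31 (SE 0.25, edgeR adjusted p = 0.578). C6, part of the membrane pore, had 19, 6, 3 and 0 reads in infants 1 to 4, against 68, 39 and 20 in adults 1 to 3. The lowest adult, with 20 reads, lay just above the highest infant once scaled, at 0.981 against 0.900 CPM, and the log2 fold change was -2.43 (SE 0.81, edgeR adjusted p = 0.310). C8g had 16 to 31 reads in infants and 17 to 24 in adults, and C7, C8a and C8b had 0 in all libraries.

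Receptor and regulator genes reached the highest levels of the wider list. Clu, the secreted chaperone clusterin that blocks pore assembly, had 9115, 6290, 4468 and 7427 reads in infants 1 to 4, against 8727, 11390 and 15745 reads in adults 1 to 3. Its means were 353 ± 77.8 CPM in infants (SD, n = 4) and 559 ± 194 CPM in adults (SD, n = 3). It was lowest in infant 3 and highest in adult 3, the libraries that were both high for C1q, and its log2 fold change was -0.66 (SE 0.24, edgeR adjusted p = 0.318). Calr, calreticulin, which binds C1q at the cell surface, averaged 273 ± 81.6 CPM in infants (SD, n = 4) and 308 ± 2.56 CPM in adults (SD, n = 3). Itgb2, the beta chain of complement receptors 3 and 4, averaged 173 ± 38.3 CPM in infants (SD, n = 4) and 181 ± 0.951 CPM in adults (SD, n = 3). C1qbp averaged 65.7 ± 2.64 CPM in infants and 61.9 ± 11.1 CPM in adults. Serping1, the C1 inhibitor, had 31, 7, 26 and 40 reads in infants, against 15, 10 and 9 in adults, and the fitted log2 difference was 1.37 (SE 0.59, edgeR adjusted p = 0.361). Cd59a, which guards cells against the pore, had 6 to 26 reads in infants and 1 to 8 in adults and was not tested.

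The split of reads within genes gave a further readout. Reads across exon junctions made up 97.5% to 98.2% of the C3 exon reads in infants and 96.5% to 97.6% in adults, and 31.1% to 34.4% of those of C1qa in infants and 33.4% to 35.8% in adults. Intron reads were 1.82%, 1.26%, 1.65% and 1.56% of the C1qb reads in infants 1 to 4, against 0.589%, 1.08% and 0.968% in adults 1 to 3, so every infant lay above every adult. This held for 1 of the 6 members with at least 50 intron reads, and for 2.59% of the 9344 genes with as many, while adults lay above infants for 6.62%. Over all genes the intron share was 4.45% to 5.37% in infants and 4.93% to 6.36% in adults. For C1qa and C1qc the groups overlapped in intron share, at 0.283% to 0.703% and 0.513% to 0.985% in infants, against 0.209% to 0.486% and 0.407% to 0.575% in adults.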

How the data were processed

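RNA of sorted CD11b+ migratory dendritic cells was measured in 7 libraries, grouped by the age in their labels. Per the file headers, the deposited tables hold read counts per gene, as whole numbers, for exons, junctions and introns, each for unique and for all reads. The authors' RPKM values are total exon reads scaled by exon length and by library total, which was checked on the files. The authors' TPM values were not used in a test. The submitters' processing notes name the build mm10, Cuffnorm 2.2.1 and Cuffdiff 2.2.1, Cufflinks 2.2.1.0, and TopHat, with TopHat2 in versions 2.1.0 and 2.0.14. No source used here gives the counting program, its annotation or any strand setting.

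Total exon reads as deposited were filtered with filterByExpr by group, scaled by TMM, and then analysed in edgeR 4.0.16 (robust glmQLFit and glmQLFTest) in R 4.3.3, with age as the term and Benjamini-Hochberg adjustment over all 12261 genes kept, which took 99.9% of the reads. The common biological coefficient of variation was 0.232. Standard errors are the fold change over the square root of F. A count of 3 reads is 0.135 to 0.171 CPM per library on the scaled library sizes, which covers counting error only. The edgeR fit was tested on simulated counts. Alternatives were DESeq2 1.42.0, limma 3.58.1, other scalings, filters and reads, and leaving out each library.

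The members, the lists and the rule for named genes were chosen with earlier results of these data known. The rule names all members, wider complement genes called or without overlap, the 3 of each role with the highest mean RPKM, and the 3 nearest genes per pattern. The files list Itgam as 2 entries, of which the first (ENSMUSG00000030786) was used. Promoter sequences are from RefSeq, build GRCm38.p6.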

Additional observations from a re-analysis of the deposited data

Results flagged for a closer look

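C1qa in infant 3 stood far from the other infants, at 191 CPM against 59.3 to 74.1 CPM. Its gap to the next infant, over the range of the 4, exceeded Dixon's critical value of 0.829, which chance exceeds in about 1 of 20 groups. That rate holds for a single group, and other groups, among them the ratios above, were looked at in the same way. In the same library the macrophage marker sum was 1697 CPM and Fcgr1 31.6 CPM, the highest of the infants for both, and their part in the value was not tested. Without infant 3 the log2 fold change of C1qa, infant minus adult, was -0.64 (adjusted p = 0.429 by edgeR).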

How the results depend on the processing

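None of the 8 members passed under any of the 22 alternative settings, where the lowest adjusted p was 0.429 (C1qa without infant 3). The signs of small fold changes were not stable. With 1 library left out, log2 fold changes ran from -0.64 to 0.11 for C1qa, -0.53 to 0.32 for C1qb, -0.34 to 0.36 for C1qc, -0.52 to -0.13 for C3, -0.12 to 0.35 for Cfb, -0.38 to 0.031 for Cfp, -0.55 to 0.21 for C3ar1 and -0.53 to 0.31 for C5ar1. Without adult 3 the C1q chains were at 0.11, 0.32 and 0.36 (C1qa, C1qb, C1qc), and without infant 3 at -0.64, -0.53 and -0.34. C3 kept its direction in all 22 settings. C1qc turned to -0.068 with library quality weights in limma-voom, and to -0.016 on log2(RPKM + 1), with or without a filter, and on log2(RPKM + 0.1). The cause was not tested.

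Same-numbered libraries did not deviate together (r of 0.033, -0.035 and 0.101), so the numbers were not taken to pair them. With the replicate number as a block, C1qb was at 0.16, C3ar1 at 0.11 and C5ar1 at 0.16, and 1 gene of all passed. Replicate 4 had an infant library only, so that library did not enter the comparison of groups in this setting. Leaving out infant 4 without a block gave 0.16, 0.12 and 0.21, so the block values cannot be read as an effect of pairing.

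Over all genes, 2 passed in the main test, 193 by DESeq2, 110 with library quality weights, 8 with no filter, 1 on log2(RPKM + 1) or log2(RPKM + 0.1), and 96 on log2(RPKM + 1) with no filter, where limma warned that most variances were 0. Leaving out 1 library gave 2 to 10 genes. Of the wider list, 2 passed on log2(RPKM + 1) with no filter, Fcna and C1s1, and 0 in each other setting. Low reads limit C1s1, C6 and the other genes under about 1 CPM.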
